A study of Mus musculus with 2 samples.

Results

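The genes described here encode the kinetochore, the spindle assembly checkpoint, the mitotic kinases and the spindle proteins that separate chromosomes in dividing cells. The 35 listed symbols were each matched to 1 of the 43629 Ensembl gene identifiers with counts. The matching used no measured value, but the list was chosen with earlier results of these data known. The cells were wild-type E14, an established line of mouse embryonic stem cells that the labels give as blastocyst-derived and of 129/Ola background, and their polyadenylated RNA was sequenced. The labels hold 1 group of 2 libraries, named P33 and P42 after the age label that each carries. Nothing in the labels says how far the cultures were separate, so no difference between the libraries could be tested and no p-value is given.

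In mitosis each chromosome is held by the kinetochore, a protein assembly built on the centromere around nucleosomes that contain the histone variant CENP-A. An inner layer of CENP proteins stays on the centromere and carries the outer layer, which binds spindle microtubules. The spindle assembly checkpoint holds back the anaphase-promoting complex, the ubiquitin ligase that starts chromatid separation, until every kinetochore is attached. Embryonic stem cells divide fast with short gap phases, and transcripts of many of these genes accumulate late in the cell cycle.

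Levels are given as RPKM, read counts scaled to exon length (merged exons) and to a library size adjusted by TMM, the trimmed mean of M values. Ratios between the libraries are log2 values of P42 over P33 on the same scaling, with a 95% interval that covers counting error only. Both libraries held about the same number of counts, 40139219 in P33 and 39657578 in P42. All 7 markers of pluripotent stem cells were detected in both, with summed levels of 3916 RPKM in P33 and 4459 RPKM in P42. Dppa5a alone gave 2412 and 2673 RPKM of these sums. The 7 ratios ran from −0.67 for Pou5f1 (357 and 224 RPKM) to 1.03 for Sox2 (147 and 301 RPKM). Of 8 fibroblast markers 2, Thy1 and Pdgfrb, were detected in both libraries. The 8 summed to 11.3 and 9.33 RPKM, of which Thy1 gave 9.96 and 8.24 RPKM. Col1a1, Col1a2 and Col3a1 had 45, 16 and 1 counts in P33 and 14, 10 and 0 in P42. Dcn, Lum and Postn had no count in either library. Of 6 primitive endoderm markers 5 were detected, with sums of 5.38 RPKM in P33 and 17.5 RPKM in P42, and their part in the ratios below was not tested.

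All 35 genes were detected in both libraries, at 1 CPM (counts scaled to library size alone) or more in each. Their median level was 23.0 RPKM, beside 6.42 RPKM for the 13017 genes detected in both libraries. Of the 35, 31 stood at 10 RPKM or more, beside 5023 of all 43629 identifiers, detected or not. Spindle and chromatid genes were at the top, with a median of 71.1 RPKM, and inner kinetochore genes at the bottom, with a median of 12.2 RPKM. Between them lay the outer kinetochore at 18.4 RPKM, the checkpoint at 30.1 RPKM, the chromosomal passenger complex at 31.7 RPKM and the other kinases at 48.1 RPKM. The order of the genes was alike in the 2 libraries, with r = 0.94 (Pearson, log2 levels) and rho = 0.93 (Spearman) across the 35 genes, which are not independent replicates. These are levels in a bulk population, in which a larger share of cells in mitosis and more RNA per cell cannot be told apart.

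**Figure D1:**
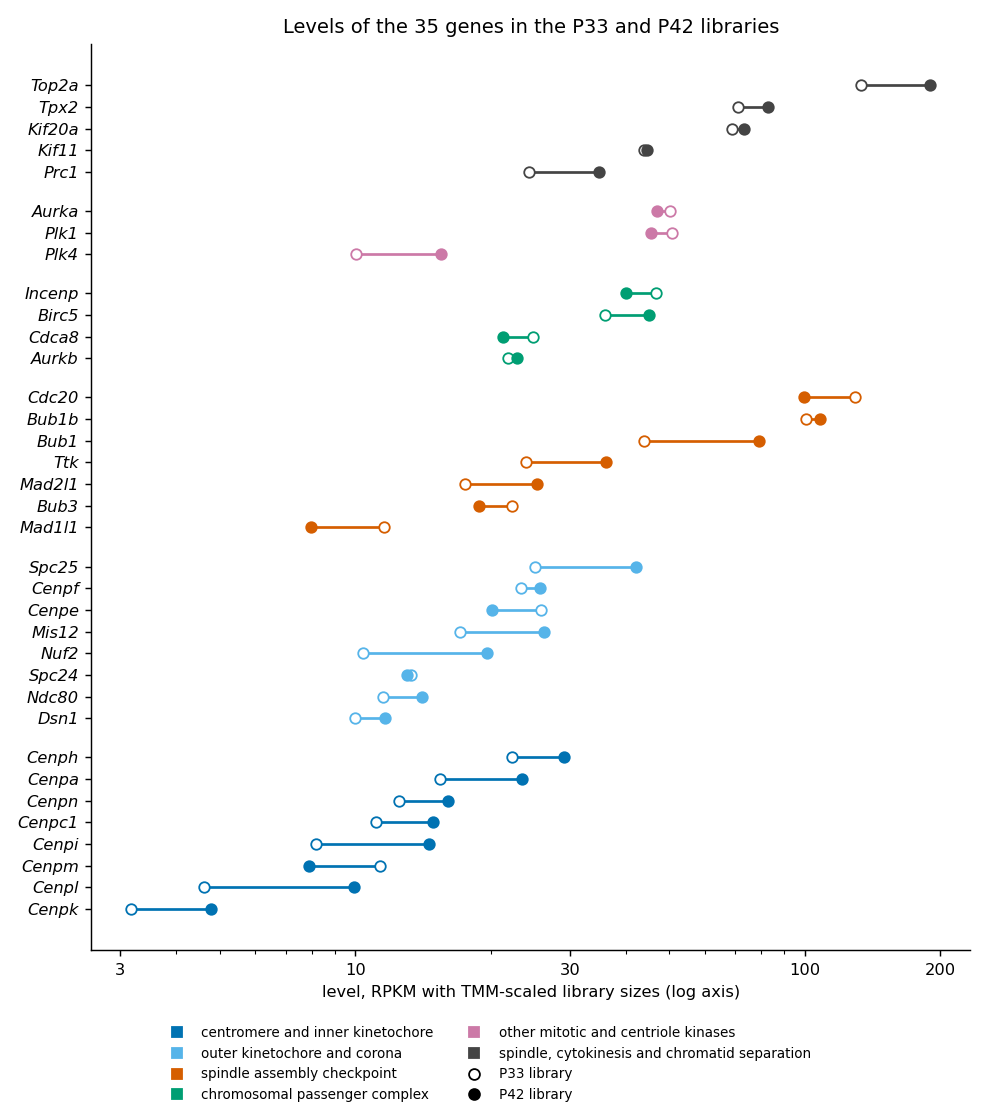
Level of each of the 35 genes in RPKM (horizontal log axis), grouped by role and sorted within a role by mean level, with an open circle for the P33 library and a filled circle for the P42 library. Top2a was highest at 133.1 and 190.3 RPKM and Cenpk lowest at 3.18 and 4.79 RPKM, and the inner kinetochore genes lay below most checkpoint and spindle genes in both libraries.

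Between the libraries, 1 of the 35 genes passed 2-fold. This gene, Cenpl, was at least 2-fold higher in P42 with an interval above equality, where 5.07% of the 13737 tested genes (mean of 1 CPM or more) were. None was at least 2-fold lower, where 9.54% of all tested genes were. At a threshold of 1.5-fold, 10 of the 35 were higher, beside 16.1% of all tested genes, and 0 were lower, beside 18.9%. With total counts in place of TMM these 10 and 0 became 5 and 2, beside 10.98% and 23.88% of all tested genes. After correction for the trend on GC content and exon length they became 3 and 0. The shares were then 13.64% and 14.94% of the 13668 tested genes of known GC content. The higher share of the 35 was thus above that of all tested genes with TMM (28.57%) and below it after this correction (8.57%). Counts under these settings were taken after the data were seen. The log2 ratio was above 0 for 25 of the 35 genes, beside 52.7% of all tested genes, and the median was 0.28, beside 0.04 for all tested genes.

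Scaling by total counts alone lowers every ratio by 0.14, which left 20 of the 35 genes above 0, beside 42.7% of all tested genes. The median was then 0.14, beside −0.10 for all tested genes, so both medians were lower by about the same amount. The 5 genes that crossed were Cenpf, Bub1b, Aurkb, Kif11 and Kif20a. After correction for GC content and length the median was 0.10, beside 0.04 for all tested genes. Then 26 of the 35 lay above 0, beside 53.4% of all tested genes. With the chromosome median subtracted, 25 of the 35 lay above 0, beside 49.9%, and the median was 0.23, beside 0. The sign of small ratios thus depended on the scaling, and the distance to all tested genes on the correction for GC content and length.

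**Figure D2:**
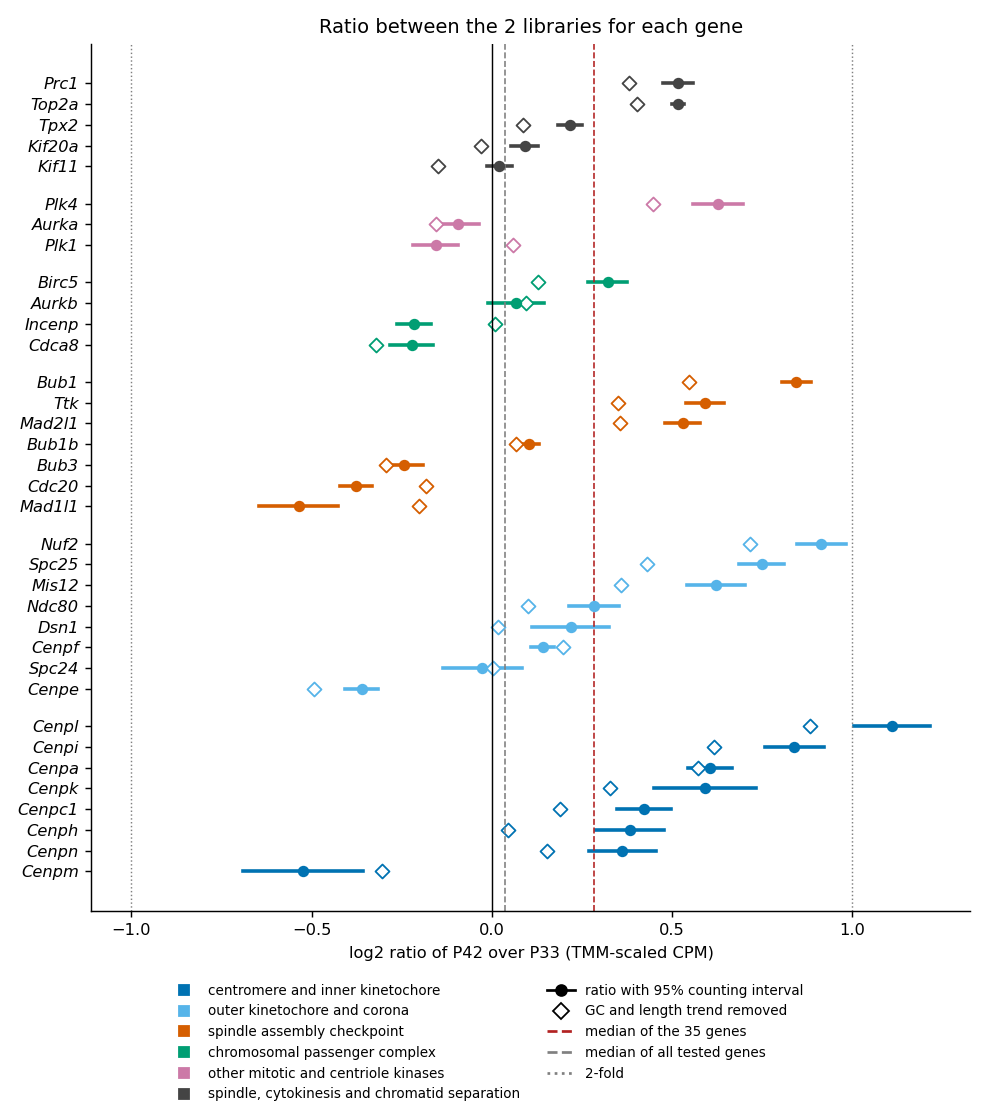
Log2 ratio of P42 over P33 for each of the 35 genes by role (filled circles, with the 95% counting interval as a bar) and the same ratio after removal of the trend on GC content and exon length (open diamonds). Dashed lines mark the median of the 35 genes (0.28) and of all tested genes (0.04), and dotted lines mark 2-fold: Cenpl alone lies beyond 2-fold, and the checkpoint genes spread to both sides of 0.

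Promoters are shown for 6 genes. Cenpl passed 2-fold, and Top2a and Cdc20 were the 2 genes of highest mean level. Bub1 and Spc25 were among the genes at least 1.5-fold higher in P42, and Plk1 is a mitotic kinase gene. Many late cell cycle genes carry a CHR element (cell cycle genes homology region), read by the DREAM and MuvB complexes, and CCAAT boxes, read by NF-Y. The sequences are those of RefSeq on GRCm38.p6, the assembly that mm10 names, written 5′ to 3′ on the strand of the gene and ending 50 bases after the annotated start of transcription. Capitals mark, on either strand, the CHR word TTTGAA, the CHR-like words TTTAAA and TTCGAA, the CCAAT box CCAAT, and the E2F words TTTGGCGC, TTTCCCGC, TTTCGCGC and TTTGCCGC.
Cenpl, chr1:161070517-161070816, plus strand: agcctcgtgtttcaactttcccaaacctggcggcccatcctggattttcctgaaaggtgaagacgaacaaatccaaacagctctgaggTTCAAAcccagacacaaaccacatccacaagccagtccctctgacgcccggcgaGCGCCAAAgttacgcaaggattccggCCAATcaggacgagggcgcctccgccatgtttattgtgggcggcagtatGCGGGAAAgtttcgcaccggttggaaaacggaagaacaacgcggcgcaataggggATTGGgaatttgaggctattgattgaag
Top2a, chr11:99024140-99024439, minus strand: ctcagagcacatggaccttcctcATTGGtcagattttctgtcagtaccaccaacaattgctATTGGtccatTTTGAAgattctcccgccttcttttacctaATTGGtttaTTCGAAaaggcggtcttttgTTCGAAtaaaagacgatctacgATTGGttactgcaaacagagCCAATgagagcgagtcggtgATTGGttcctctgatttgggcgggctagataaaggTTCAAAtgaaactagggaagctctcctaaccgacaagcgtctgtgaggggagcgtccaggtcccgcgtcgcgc
Cdc20, chr4:118437294-118437593, minus strand: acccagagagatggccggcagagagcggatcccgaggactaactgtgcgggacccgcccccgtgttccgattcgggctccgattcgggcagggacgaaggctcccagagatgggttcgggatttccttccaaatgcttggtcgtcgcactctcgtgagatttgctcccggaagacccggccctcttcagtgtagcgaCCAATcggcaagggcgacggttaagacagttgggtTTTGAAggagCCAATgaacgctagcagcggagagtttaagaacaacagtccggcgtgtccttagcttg
Bub1, chr2:127831810-127831959, minus strand: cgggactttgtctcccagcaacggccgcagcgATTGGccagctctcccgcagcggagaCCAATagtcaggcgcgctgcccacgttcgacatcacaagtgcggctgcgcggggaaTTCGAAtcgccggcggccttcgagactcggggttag
Spc25, chr2:69206164-69206313, minus strand: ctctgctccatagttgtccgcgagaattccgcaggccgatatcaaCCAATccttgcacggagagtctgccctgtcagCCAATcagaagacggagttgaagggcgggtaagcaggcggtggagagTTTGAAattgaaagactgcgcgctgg
Plk1, chr7:122159335-122159484, plus strand: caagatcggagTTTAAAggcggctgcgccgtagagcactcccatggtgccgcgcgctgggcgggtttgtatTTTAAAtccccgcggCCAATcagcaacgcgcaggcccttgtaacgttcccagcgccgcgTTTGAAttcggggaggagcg

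Promoter entries of 300 bases, 250 before the start and 50 after it, were matched for 30 of the 35 genes. Tpx2, Kif20a, Incenp, Aurkb and Spc24 had none. The 30 genes had 35 such entries, since some have several starts. The CHR word was in 18 of the 35 entries (51.4%), beside 17.9% of all 32851 entries, and the CCAAT box was in 27 (77.1%), beside 37.4%. Both together were in 17 (48.6%), beside 6.95% of all entries. A CHR-like word was in 13 entries (37.1%, beside 14.6%) and an E2F word in 3 (8.57%, beside 2.26%), those of Cenpl, Cenpm and Dsn1. Other mitotic genes, the wider list described below, had 103 entries for 94 genes. Of these entries 42.7% held the CHR word, 54.4% the CCAAT box and 28.2% both. A CHR-like word was in 18.4% of them and an E2F word in 9.71%, so these motifs were not particular to the 35 genes.

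Most CHR words lay close to the start. Of the 16 genes with a CHR word, 15 had it within 50 bases of the start, and of the 23 genes with a CCAAT box 20 had one in the 150 bases before it. The same shares over all promoters were not counted. Some matches of the other motifs lay further off, such as a CHR-like word at −220 in Birc5 and an E2F word at −204 in Dsn1. In 1 case, Cdca8, 2 matches overlapped. The median ratio was 0.21 for the 16 genes with a CHR word and 0.48 for the 14 without one, and 11 genes of each set lay above 0. The median GC content of their transcripts was 45.2% with the word and 42.5% without it. After correction for GC content and length the median ratios were 0.13 and 0.26. A match is a run of letters and not a measured binding site.

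**Figure D3:**
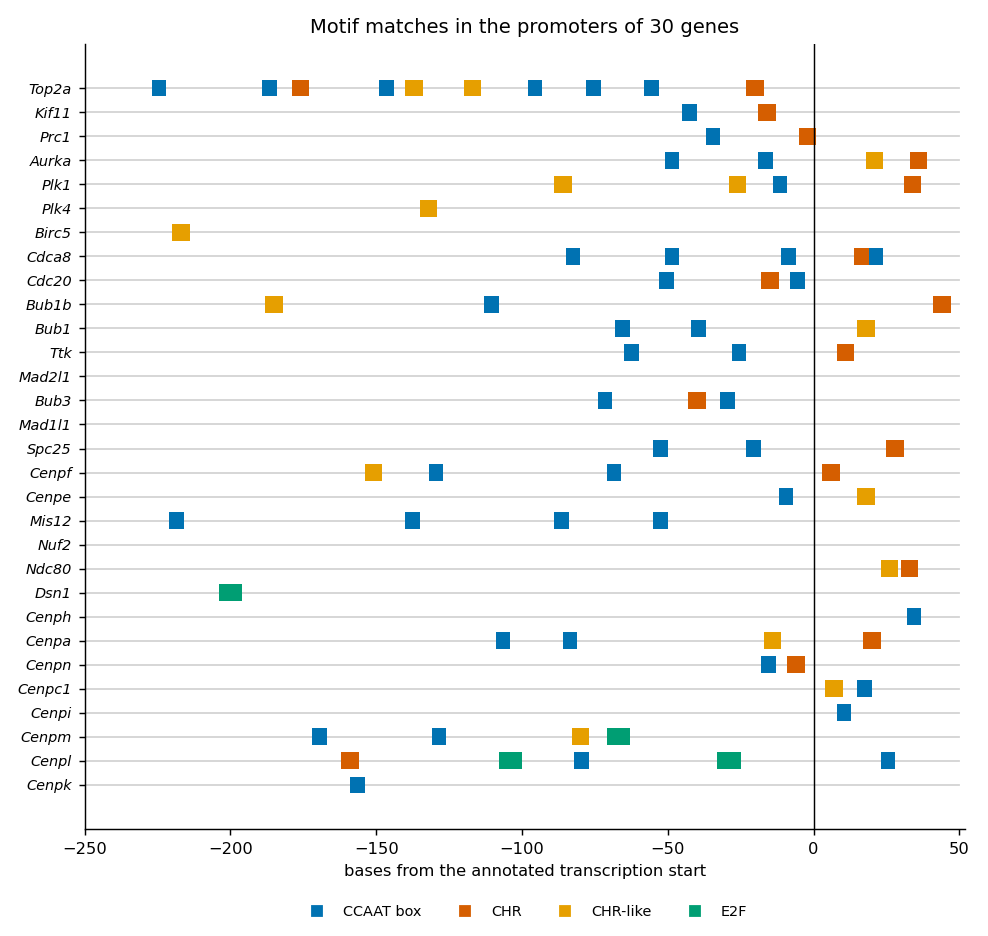
Positions of motif matches in the promoter of 30 genes (1 entry for each gene), in bases from the annotated start (horizontal axis, 0 at the start), with blue for the CCAAT box, red for the CHR word, orange for CHR-like words and green for E2F words. CHR words gather around the start and CCAAT boxes mostly in the 150 bases before it, while Nuf2, Mad1l1 and Mad2l1 show no match.

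The inner kinetochore genes stood higher in P42 for 7 of 8 members, with a median ratio of 0.51, which was 0.26 after correction for GC content and length. Cenpl encodes a subunit that binds CENP-N in the inner kinetochore and lies on chromosome 1 at 161070713–161086724 (mm10). It had 1105 counts in P33 and 2138 in P42, levels of 4.60 and 9.94 RPKM, and a ratio of 1.11 (1.01 to 1.22). Its partner Cenpn, which recognises the CENP-A nucleosome, stood at 12.5 and 16.1 RPKM with a ratio of 0.36, so the level of Cenpn exceeded that of Cenpl 2.72 times in P33 and 1.62 times in P42.

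The tested genes of chromosome 1 had a median ratio of 0.60, and less that median the ratio of Cenpl was 0.51. It was 0.97 with total counts and 0.88 after correction for GC content and length, each under 2-fold. Nuf2 and Cenpf, the other members on chromosome 1, had ratios of 0.91 and 0.14, which became 0.31 and −0.46 after subtraction of that median. The part of the chromosome-wide difference in these ratios was not tested.

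Cenpa, the gene for the centromeric histone H3 variant, stood at 15.4 RPKM in P33 and 23.4 RPKM in P42, a ratio of 0.61 (0.54 to 0.67). Cenpc1 encodes the scaffold that links this nucleosome to the outer kinetochore and stood at 11.1 and 14.9 RPKM, a ratio of 0.42. Both were higher in P42 under every scaling tried.

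The products of Cenph, Cenpi, Cenpk and Cenpm form 1 subcomplex of the inner kinetochore, and their transcripts had unlike ratios. Cenph was the most abundant inner kinetochore gene, with 1677 and 1960 counts, 22.3 and 29.1 RPKM and a ratio of 0.38 (0.29 to 0.48). Cenpk was the least abundant of all 35, with 701 and 946 counts, 3.18 and 4.79 RPKM and a ratio of 0.59 (0.45 to 0.73). Cenpi, on the X chromosome, stood at 8.17 and 14.6 RPKM with a ratio of 0.84.

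Cenpm was the exception among the inner kinetochore genes, at 11.4 RPKM in P33 and 7.89 RPKM in P42, a ratio of −0.52 (−0.69 to −0.36). It lies on chromosome 15, where the median ratio of the tested genes was −0.61, and less that median its ratio was 0.09. Levels within the subcomplex spanned 7.01 times in P33 and 6.08 times in P42. With the length of the longest transcript in place of merged exons the level of Cenpk in TPM (transcripts scaled to a common total) is 2.02 times as high, so its place at the bottom is loose.

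The outer kinetochore and its fibrous corona had a median ratio of 0.25, with 6 of 8 genes above 0, 5 of 8 with total counts. Spc25, a subunit of the NDC80 complex that grips microtubules, had the highest level of the role in P42, while Cenpe had it in P33. Spc25 had 3370 counts in P33 and 5071 in P42, with levels of 25.1 and 42.1 RPKM and a ratio of 0.75 (0.68 to 0.81). Nuf2, another subunit, stood at 10.4 and 19.7 RPKM with a ratio of 0.91 (0.85 to 0.98), the largest after Cenpl.

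The remaining subunits of the NDC80 complex differed less between the libraries. Ndc80, which encodes the microtubule-binding subunit, stood at 11.5 and 14.05 RPKM with a ratio of 0.28, and Spc24 at 13.3 and 13.0 RPKM with a ratio of −0.03 (−0.14 to 0.08), an interval that holds 0. Across the 4 subunits of this 1 complex the ratios spanned 0.94 on the log2 scale and 0.71 after correction for GC content and length. The highest level exceeded the lowest 2.403 times in P33 and 3.23 times in P42.

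Mis12 and Dsn1 belong to the MIS12 complex, which bridges CENP-C and the NDC80 complex. Mis12 stood at 17.1 RPKM in P33 and 26.3 RPKM in P42, a ratio of 0.62. Dsn1, the least abundant outer kinetochore gene here, had 1414 and 1474 counts, 10.002 and 11.6 RPKM, and a ratio of 0.22 (0.11 to 0.32).

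Among the corona genes Cenpe had the lowest ratio of the role. This gene encodes the kinesin that carries chromosomes along microtubules. It stood at 25.9 RPKM in P33 and 20.2 RPKM in P42, a ratio of −0.36 (−0.41 to −0.32), and it stayed below 0 with total counts (−0.50), after correction for GC content and length (−0.49) and less its chromosome median (−0.53). Its transcript had a GC content of 42.9%, in a range where most members lay above 0. Cenpf, which encodes a large corona protein, stood at 23.4 and 25.8 RPKM with a ratio of 0.14. This lies just below 0 with total counts, and it is −0.46 after subtraction of the chromosome 1 median.

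Checkpoint genes lay on both sides of 0, with 4 of 7 above it, 3 of 7 with total counts, and a median of 0.10. Bub1, the gene for a kinase that marks centromeric chromatin and recruits other checkpoint proteins, stood at 44.0 RPKM in P33 and 79.0 RPKM in P42, a ratio of 0.84 (0.80 to 0.88). Ttk, which encodes the kinase MPS1 that starts the checkpoint signal, stood at 24.0 and 36.2 RPKM with a ratio of 0.59. Both were higher in P42 under every scaling tried.

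Bub1b and Bub3 encode parts of the mitotic checkpoint complex that binds the anaphase-promoting complex. Bub1b was far more abundant than Bub3, at 100.5 and 107.8 RPKM beside 22.3 and 18.8 RPKM. Its ratio of 0.10 turned to −0.04 with total counts, while that of Bub3 was −0.24 (−0.30 to −0.19).

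Mad1l1 and Mad2l1 encode partners that form a stable complex at unattached kinetochores, and they stood on opposite sides of 0. Mad2l1 was at 17.6 RPKM in P33 and 25.4 RPKM in P42, a ratio of 0.53 (0.48 to 0.58). Mad1l1, the least abundant checkpoint gene, had 1780 and 1100 counts, 11.6 and 7.98 RPKM, and a ratio of −0.54 (−0.65 to −0.43), the lowest of all 35. The level of Mad2l1 thus exceeded that of Mad1l1 1.52 times in P33 and 3.18 times in P42.

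The transcripts of this pair also differ in base composition, with a GC content of 40.1% for Mad2l1 and 56.8% for Mad1l1, the highest of the 35. After correction for GC content and length the gap between their ratios went from 1.06 to 0.56.

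Cdc20, which encodes the activator of the anaphase-promoting complex that the checkpoint holds in check, was second in mean level to Top2a. It had 10193 counts in P33 and 7031 in P42, levels of 129.5 and 99.7 RPKM and a ratio of −0.38 (−0.42 to −0.33). Bub1b stood below Cdc20 in P33 and above it in P42, so the order of these neighbours was not fixed. Measured per length of the longest transcript, Bub1b lay above Cdc20 on average, at 296 and 294 TPM.

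The chromosomal passenger complex, which corrects faulty attachments and later moves to the midzone of the spindle, had no ratio beyond 0.32 in size. Its 4 genes had ratios from −0.22 to 0.32 and a median of −0.07, and no member reached 1.5-fold in either direction. Incenp, the scaffold gene, had the highest level in P33, with 8495 and 6552 counts, 46.6 and 40.1 RPKM and a ratio of −0.22 (−0.26 to −0.17), which was 0.008 after correction for GC content and length. Birc5, which encodes survivin, stood at 36.0 and 44.9 RPKM with a ratio of 0.32, and its level was above that of Incenp in P42.

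Cdca8, the gene for borealin, stood at 24.8 RPKM in P33 and 21.3 RPKM in P42, a ratio of −0.22. Aurkb, the gene for the kinase of the complex, had 2718 and 2550 counts, 21.9 and 22.9 RPKM and a ratio of 0.07 (−0.01 to 0.15). It was the lowest of the 4 in P33, and Cdca8 was in P42. The interval holds 0, and the ratio is −0.07 with total counts. Levels of the 4 genes lay within 2.13 times of each other in P33 and 2.11 times in P42.

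Among the other kinases Aurka and Plk1 stood at nearly the same level. Aurka, the centrosomal Aurora kinase gene, had 5352 and 4494 counts, 50.2 and 47.0 RPKM and a ratio of −0.09 (−0.15 to −0.04). Plk1, the gene for a kinase of mitotic entry and cytokinesis, stood at 50.7 and 45.5 RPKM with a ratio of −0.16 (−0.22 to −0.09), which became 0.06 after correction for GC content and length. The level of each exceeded the other in 1 library, so their order was not fixed.

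Plk4, the gene for the kinase that controls centriole duplication, was lower in level and stood higher in P42. It had 2895 counts in P33 and 4007 in P42, levels of 10.02 and 15.5 RPKM and a ratio of 0.63 (0.56 to 0.70).

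Top2a, the gene for the topoisomerase that untangles sister chromatids, was the most abundant of the 35 in both libraries. It had 50572 counts in P33 and 64769 in P42, which were 20.8% and 24.5% of the counts of all 35 genes. Its level of 133.1 RPKM in P33 and 190.3 RPKM in P42 gave a ratio of 0.52 (0.50 to 0.53), and it was above 0 under every scaling tried. The gene lies on chromosome 11 at 98992943–99024189 (mm10).

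The spindle motors and their regulators were among the genes that differed least. Tpx2, which encodes the activator of Aurora A on the spindle, stood at 71.1 and 82.7 RPKM with a ratio of 0.22. Kif11, the gene for the kinesin that pushes spindle poles apart, stood at 43.9 and 44.6 RPKM with a ratio of 0.02 (−0.01 to 0.06), an interval that holds 0, and it was below 0 with total counts (−0.12) and after correction for GC content and length (−0.15). Kif20a, which encodes a cytokinesis kinesin, stood at 68.9 and 73.3 RPKM with a ratio of 0.09, below 0 with total counts (−0.05) and after that correction (−0.03).

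Exons of Cdc23 on the opposite strand cover 29.3% of the exon length of Kif20a. The strand setting of the counting is not given in the sources used here, so its count is uncertain. Prc1, which encodes the protein that bundles antiparallel microtubules in the midzone, was the least abundant of this role, with 8435 and 10810 counts, 24.3 and 34.8 RPKM and a ratio of 0.52 (0.48 to 0.56). Its exons are overlapped over 11.1% of their length by Rccd1 on the opposite strand.

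Ratios between the libraries were lower for genes with GC-rich transcripts. Over the 35 genes the ratio and the GC content (that of the longest transcript) gave r = −0.75 (Pearson) and rho = −0.74 (Spearman), beside −0.32 and −0.39 over 13668 tested genes of known GC content. These correlations are across genes of the same 2 libraries and are given as a description. All 4 genes with a GC content of 55% or more (Cdc20, Plk1, Cenpm and Mad1l1) lay below 0. Of the 12 genes under 43%, 11 lay above 0, and Cenpe was the exception. The same shares of all tested genes in these ranges were not counted. All tested genes were also cut into 10 equal groups of GC content. Their median ratio was 0.33 and 0.29 in the 2 groups of lowest GC content and −0.33 and −0.48 in the 2 of highest, so signs ran alike there.

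The members were poorer in GC than most genes, with a median of 45.6% beside 49.7%, and 26 of the 35 lay below the median of all tested genes. Those 26 had a median ratio of 0.47, beside 0.23 for all tested genes on that side. The other 9 had a median of −0.16, beside −0.20. Set against the tested genes in the same of 10 equal groups of GC content, 23 of the 35 members lay above the median of their group, by a median of 0.12. After removal of the trend, the r of the ratio with GC content over the members was still −0.56.

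**Figure D4:**
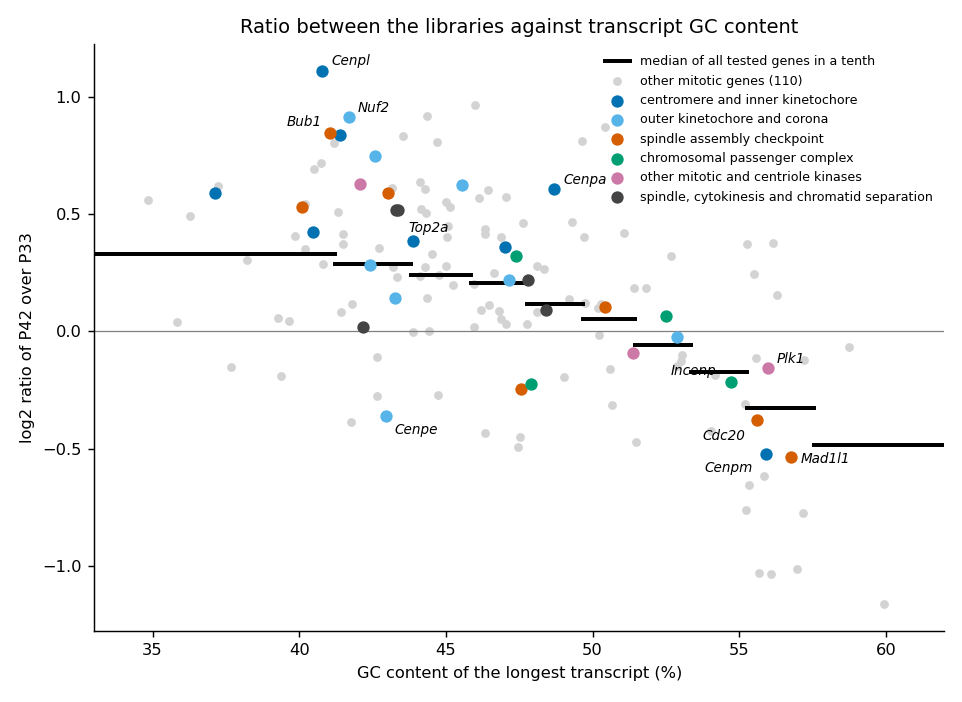
Log2 ratio of P42 over P33 (vertical axis) against the GC content of the longest transcript in percent (horizontal axis, drawn from 33% to 62%) for the 35 genes by role (coloured points) and 110 other mitotic genes (grey points), with the median of all tested genes in each of 10 equal groups of GC content as black bars. The bars step down from 0.33 to −0.48 with rising GC content, and the 35 genes run in the same direction from Cenpl at 1.11 to Mad1l1 at −0.54.

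A wider list of 110 other mitotic genes, none of them among the 35, was read in the same way. All 110 were detected in both libraries, with a median level of 18.8 RPKM. Their median ratio was 0.20, or 0.06 with total counts. Of the 110, 78 lay above 0, beside 52.7% of all tested genes, and 59 with total counts, beside 42.7%. None was at least 2-fold higher, beside 5.07% of all tested genes, and 4 were at least 2-fold lower, beside 9.54%. At 1.5-fold 14 were higher, beside 16.1%, and 8 lower, beside 18.9%. These 14 and 8 became 7 and 11 with total counts, beside 10.98% and 23.88% of all tested genes. After correction for GC content and length they became 6 and 7, beside 13.64% and 14.94%. The ratio was again lower at higher GC content, with r = −0.52 and rho = −0.44 across these genes.

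The 4 genes at least 2-fold lower in P42 were Fzr1, Espl1, Kifc1 and Ncaph2. Fzr1 encodes CDH1, the activator of the anaphase-promoting complex that takes over from CDC20, and stood at 12.6 RPKM in P33 and 5.64 RPKM in P42, a ratio of −1.16 (−1.27 to −1.05). Espl1, the gene for separase, which cuts cohesin, stood at 28.3 and 13.9 RPKM with a ratio of −1.03. Pttg1, the gene for the separase inhibitor securin, stood at 21.4 and 41.7 RPKM with a ratio of 0.97, just under 2-fold, and it was picked out after its value was seen.

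Kifc1, a minus-end kinesin gene, had a ratio of −1.01, and Ncaph2, a condensin II subunit gene, one of −1.03. These 4 lower genes had transcripts of 55.7% to 59.9% GC, and Espl1 and Ncaph2 lie on chromosome 15. After correction for GC content and length their ratios were −0.62 for Fzr1, −0.58 for Espl1, −0.68 for Kifc1 and −0.75 for Ncaph2, all under 2-fold. The part of base composition and chromosome in these differences was not tested.

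By sublist, the median ratio was 0.38 for cyclin and kinase genes of mitotic entry and 0.28 for the mitotic kinesins sublist. This sublist of 11 genes also holds Cenpj (ratio 0.45), which is not a kinesin gene. The median was 0.24 for further outer kinetochore and checkpoint genes and 0.05 for the anaphase-promoting complex and its regulators. Further inner kinetochore genes had one of 0.15, spindle, centrosome and cytokinesis genes one of 0.16 and condensin genes one of 0.18. The most abundant gene of the wider list was Ccnb1, the gene for cyclin B1, at 82.5 and 118.4 RPKM with a ratio of 0.52, beside 0.52 for Top2a.

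In the other sublists the genes of highest mean level over the 2 libraries had ratios between −0.19 and 0.54. These were Smc4 of the condensins at 0.35, the cytokinesis regulator gene Ect2 at 0.54, Fbxo5, which encodes an inhibitor of the anaphase-promoting complex, at 0.40, Zwilch of the corona at 0.23, the kinesin gene Kif20b at −0.19 and Hjurp, the chaperone gene for CENP-A, at −0.02. In single libraries the order differed: in P33 Hmmr (ratio −0.39) stood above Ect2 and Smc2 (0.04) above Smc4. Hjurp has an interval that holds 0 (−0.06 to 0.02), while Cenpa itself had a ratio of 0.61.

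**Figure D5:**
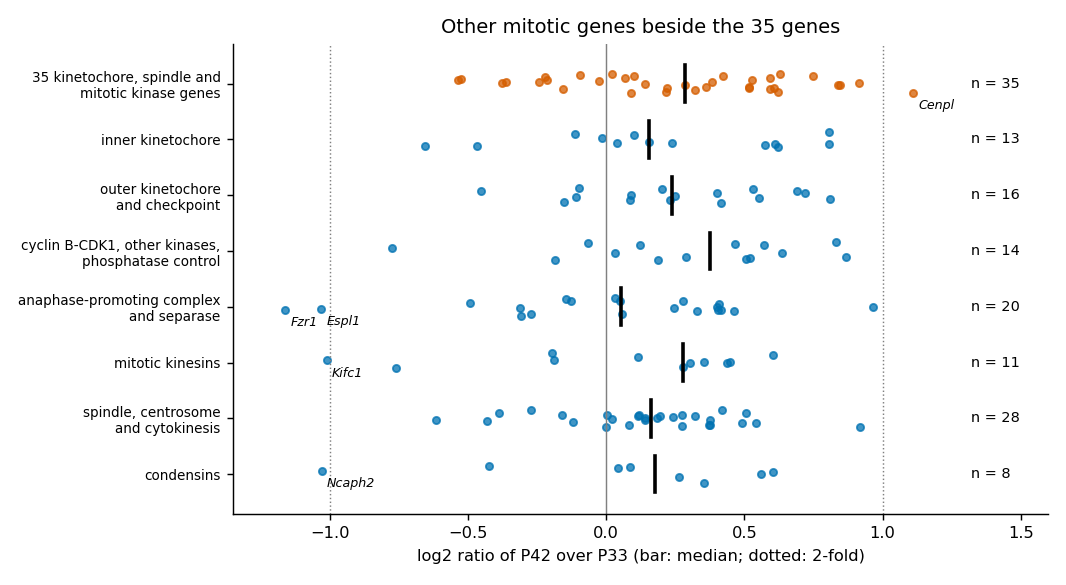
Log2 ratio of P42 over P33 (horizontal axis) for the 35 genes (orange) and for 7 sublists of 110 other mitotic genes (blue), 1 point for each gene, with the median of each list as a black bar and 2-fold as dotted lines. Genes past 2-fold are named: Cenpl among the 35, and Fzr1, Espl1, Kifc1 and Ncaph2, all lower in P42, among the others. The mitotic kinesins sublist also holds Cenpj, which is not a kinesin gene.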

How the data were processed

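Deposited tables hold the authors' whole-number read counts per Ensembl gene, without normalization. STAR 2.4.2a, featureCounts 1.4.5-p1 and mm10 are named in the submitters' processing notes; for the annotation release, the strand setting and multi-mapped reads, the setting is not given in the sources used here. Of 43629 identifiers 42548 matched GENCODE M21 (GRCm38), which gave symbols, merged exon lengths and GC content. TMM factors from edgeR 4.0.16 (R 4.3.3) were 1.050 for P33 and 0.952 for P42. Log2 ratios used a prior count of 0.5, and intervals are exact Clopper-Pearson intervals at 95%; PCR copies are not independent molecules. The 35 genes, the other lists and the thresholds were chosen with earlier results of these data known. All 35 genes are named; of the 110 others, those past 2-fold and that of highest mean level in each sublist. The GC and length trend was removed by lowess (span 0.3, statsmodels 0.14.6). Other scalings were DESeq2 1.42.0 size factors and total counts. The ratio and interval code was tested on simulated data. Python 3.11.15, numpy 2.4.6, pandas 2.3.3 and scipy 1.17.1 were used.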

Additional observations from a re-analysis of the deposited data

How the results depend on the processing

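All 35 genes stayed detected at 5 CPM, at 10 counts, in each library alone and under each scaling. The median ratio of the 35 genes, 0.28 with TMM, was 0.14 with total counts, 0.10 after correction for GC content and length and 0.11 with that correction and the chromosome median subtracted, an alternative chosen after seeing the data. The count of genes at least 2-fold higher, 1 with TMM, was 0 with total counts, 0 after correction for GC content and length, 0 with the chromosome median subtracted, 0 with both removed and 0 at 3-fold, and it was 10 at 1.5-fold. DESeq2 size factors, a prior count of 2, no CPM minimum and a minimum of 5 CPM kept it at 1. The median level, 70.5 TPM, ranged from 71.3 to 73.4 TPM in the single libraries and was 83.3 TPM over the longest transcript. The median of the 110 other mitotic genes, 0.20, was 0.057 with total counts and 0.093 after correction for GC content and length. The cause of these shifts was not tested. The ratio stayed above 0 for 20 of the 35 genes and below 0 for 6 (Cenpe, Bub3, Mad1l1, Cdc20, Cdca8 and Aurka) under TMM, total counts, trend removal and chromosome medians. With the trend removed and the chromosome median subtracted together, Cenph (−0.05) and Dsn1 (−0.001) of these 20 fell below 0. The 6 stayed below it. How many of all tested genes kept a sign in this way was not counted, so these counts are a description of the 35 only. No paired analysis was possible because the labels hold 1 group. With 1 library for each age label, no alternative shows whether the differences would recur.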
